A study of Mus musculus with 4 samples.

Results

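The genes described here encode the chaperonin CCT, also called TRiC, and were taken as the 8 rows whose symbols are Tcp1, Cct2, Cct3, Cct4, Cct5, Cct6a, Cct7 and Cct8, out of 32285 genes counted in every library. They were chosen by symbol and on measured values of these libraries, namely the CPM (UMI counts scaled to a common total) per cell class, the agreement of the subunits and the difference between genotypes, so those values are given as descriptions. Where a model fit over all genes is cited for these 8, its estimates and calls reuse the values that chose them and are no test of a difference. The study profiled single nuclei of the mouse basolateral amygdala (BLA) by droplet RNA sequencing. The DISC1-N group and the WT group had 2 libraries each, all of strain C57BL/6J, and the tissue of both groups was taken 6 h after an injection of tamoxifen into the abdominal cavity. For each group, BLA tissue from both hemispheres of 5 mice was pooled. The labels write the mutant genotype as DISC-N, DISC1 or DISC1-N; they give no age or sex, and what drives the DISC1-N allele and in which cells is not given in the sources used here. They also do not say whether the libraries of a group came from separate pools, so any spread between them may be technical.

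CCT is a large barrel in the cytosol made of a pair of stacked rings, and each ring holds 8 different subunits, 1 from each of these genes. Unfolded proteins enter the cavity and fold as the ring closes under ATP; actin and the tubulins depend on it, as do many proteins built of WD40 repeats, including G protein beta subunits. Prefoldin hands nascent actin and tubulin to the complex, and phosducin-like proteins bind it and modulate folding. In neurons and glia the supply of folded actin and tubulin serves axons, dendrites and cell processes. The subunits differ in how they handle ATP: in yeast, the counterparts of Tcp1, Cct2, Cct4 and Cct5 bind it with high affinity, and those of Cct3, Cct6a and Cct8 with low affinity.

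The 4 libraries held 27313 barcodes and between 37840301 and 48439711 unique molecular identifiers (UMIs) each. After filters, 25332 nuclei were kept and 21309 were given a cell class by the detected share of marker lists; 4023 (15.9%) had no clear class, and 3579 of the classed nuclei lay near the limit of the gate. Each of 6 classes held at least 100 nuclei in every library: 5851 excitatory neurons, 6363 inhibitory neurons, 3072 astrocytes, 2381 oligodendrocytes, 1835 oligodendrocyte precursors and 1466 microglia. Summed over their class lists, own markers stood highest in each of these classes in every library. The same lists set the gate, so this is no check of the classes. Libraries did not pair by genotype: counts of the same replicate number differed by a chi-square of 8.78 (replicate 1) and 6.31 (replicate 2) per degree of freedom, and all other library pairs by 55.6 to 69.8. In the headers of the files the replicate number also went with the version of the counting software. Each DISC1-N library is therefore set beside the WT library of its own number. Marker RNA of other classes was found in each class and differed between replicate numbers, in both directions. Excitatory markers in oligodendrocytes summed to 1044 and 295.3 CPM in DISC1-N replicates 1 and 2, against 972.5 and 397.6 CPM in WT replicates 1 and 2. Inhibitory markers in precursors summed to 2540 and 5189 CPM in DISC1-N, against 3040 and 4968 CPM in WT. Disc1 itself had 12.9 and 12.2 CPM in DISC1-N excitatory neurons, against 9.10 and 8.07 CPM in WT; in astrocytes it had 18.8 and 46.3 CPM in DISC1-N and 22.4 and 34.3 CPM in WT. Which exons the allele covers is not given in the labels, so the gene does not check them. Of the barcodes, 79 occurred in more than 1 library.

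The 8 genes lie on 8 different chromosomes of the GRCm38 (mm10) mouse genome, here by the GENCODE vM21 annotation. Tcp1 spans bases 12915701 to 12925067 of chromosome 17 on the plus strand, Cct2 117051001 to 117063814 of chromosome 10 on the minus strand, and Cct3 88297116 to 88321767 of chromosome 3 on the plus strand. Cct4 spans 22990519 to 23003780 of chromosome 11 (plus), and Cct5 31590800 to 31601804 of chromosome 15 (minus). Cct6a spans 129786998 to 129846371 of chromosome 5 (plus), Cct7 85451514 to 85468475 of chromosome 6 (plus) and Cct8 87483326 to 87495873 of chromosome 16 (minus). The subunits are thus not a gene cluster, and none shares a start region with another. Some share bases with a gene on the opposite strand: Tcp1 with Mrpl18 (645 bases) and Acat3 (1255 bases), Cct6a with Psph (452 bases), Cct7 with Pradc1 (457 bases) and Cct8 with Usp16 (192 bases); how the counting treated strand is not given in the sources used here.

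RefSeq promoters (GRCm38.p6; 250 bases before to 50 after a start) were held for 7 of the 8 genes, 9 start sites in all. The letters GGGCGG, the GC box bound by Sp1-type factors, searched on both strands, occurred in 8 of these 9 promoters and in all of the 7 genes with one, against 35.7% of the 32851 promoters in the table. The CCAAT letters were in 4 of the 9 promoters (Tcp1, Cct3, Cct6a and Cct7), against 37.4% of all promoters. CCGGAAG, the core letters of ETS-type sites, was in 3 of the 9 (Tcp1, the first start of Cct2, and Cct8), against 8.86%. GAANNTTC, the core letters of a heat shock element, was in 1 of the 9 (the second start of Cct2), against 7.86%. TGACGT, part of a cyclic AMP response element, was in 1 of the 9 (Cct6a), against 7.51%. No match of the other motifs overlapped a GC box. Shown are the promoters of Tcp1, the subunit with the highest UMI counts, and of Cct2 and Cct8, the subunits with the most negative difference in DISC1-N excitatory neurons, as 5′ to 3′ on the gene's strand with GC boxes in capitals: chr17:12916079-12916378 (plus), chr10:117063803-117064102 (minus, first start) and chr16:87495820-87496119 (minus).
Tcp1: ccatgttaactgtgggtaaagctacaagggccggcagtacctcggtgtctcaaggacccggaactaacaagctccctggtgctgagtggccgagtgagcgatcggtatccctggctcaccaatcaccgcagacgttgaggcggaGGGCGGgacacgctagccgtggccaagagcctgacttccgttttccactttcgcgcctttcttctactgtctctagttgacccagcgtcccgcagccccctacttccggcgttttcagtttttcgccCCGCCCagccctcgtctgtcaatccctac
Cct2: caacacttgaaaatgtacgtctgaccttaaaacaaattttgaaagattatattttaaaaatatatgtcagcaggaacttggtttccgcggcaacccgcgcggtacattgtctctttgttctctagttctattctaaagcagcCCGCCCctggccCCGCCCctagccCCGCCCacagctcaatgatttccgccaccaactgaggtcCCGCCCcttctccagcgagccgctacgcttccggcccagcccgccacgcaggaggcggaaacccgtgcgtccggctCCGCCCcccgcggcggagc
Cct8: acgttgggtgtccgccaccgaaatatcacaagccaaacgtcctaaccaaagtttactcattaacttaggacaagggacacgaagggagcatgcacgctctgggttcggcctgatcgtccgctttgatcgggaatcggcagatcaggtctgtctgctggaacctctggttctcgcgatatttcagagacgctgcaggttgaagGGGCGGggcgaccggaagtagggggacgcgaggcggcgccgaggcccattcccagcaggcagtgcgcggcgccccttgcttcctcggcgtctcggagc
The printed Tcp1 promoter holds 2 GC boxes, that of Cct2 holds 5 and that of Cct8 holds 1. These matches describe letters in the window and not binding.

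The complex was counted in every class, and was highest, relative to all RNA of the class, in glia. The summed level of the 8 subunits, scaled to all UMIs of the class in a library, averaged 384.1 ± 94.1 CPM in microglia, 352.7 ± 48.6 CPM in oligodendrocytes and 332.0 ± 66.5 CPM in oligodendrocyte precursors (SD, n = 4 libraries). Astrocytes averaged 323.6 ± 51.4 CPM, inhibitory neurons 247.8 ± 34.1 CPM and excitatory neurons 198.5 ± 37.2 CPM. The ranges of neighbours in this order overlapped at every step. Within a library, however, excitatory neurons were the lowest of the 6 classes and inhibitory neurons the next lowest in 4 of 4 libraries, whereas microglia stood above oligodendrocytes in only 2 of 4. A CPM value is a share of the class's RNA, so a lower share cannot be told apart from more RNA of other genes per nucleus. Excitatory nuclei were also the deepest, with a median of 8637 UMIs against 1095.5 UMIs in microglia, and they held 1.48 to 2.83 CCT UMIs per nucleus against 0.533 to 1.5 in microglia. Among nuclei of 1000 to 3000 UMIs alone, the mean of each class was higher than over all its nuclei. It was 568.7 CPM in microglia, 505.4 CPM in oligodendrocytes and 426.3 CPM in precursors. Astrocytes had 392.5 CPM, inhibitory neurons 366.3 CPM and excitatory neurons 454.7 CPM. The excitatory mean there rests on 23 to 38 nuclei per library, few and shallow for their class. Excitatory neurons were thus not the lowest class within that band of depth.

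**Figure D1:**
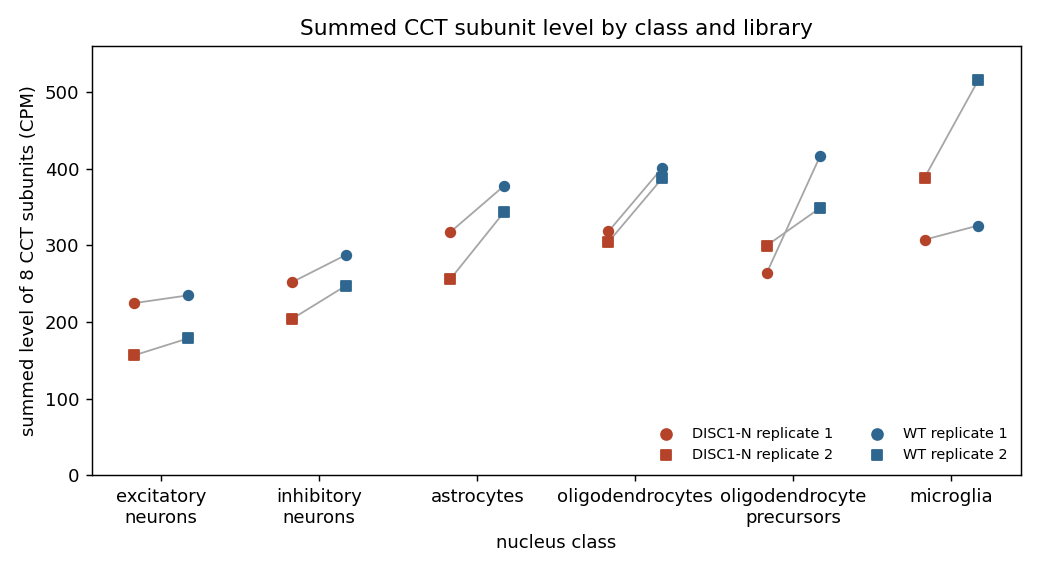
Summed level of the 8 CCT subunits (CPM, y axis) in each of 6 nucleus classes (x axis), 1 point per library, DISC1-N left of WT, with a line joining libraries of the same replicate number. Every line runs upward from DISC1-N to WT, and the points of the genotypes are separate in astrocytes, oligodendrocytes and oligodendrocyte precursors, where the highest DISC1-N library is at 317.3, 318.0 and 299.4 CPM and the lowest WT library at 343.4, 387.4 and 348.8 CPM.

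Within the complex, no single subunit carried the signal. Per kilobase of exon, the mean level in excitatory neurons was 9.18 CPM for Cct8, 7.48 for Cct2, 7.32 for Cct5, 6.91 for Tcp1, 6.80 for Cct6a and 5.97 for Cct4, with Cct7 (3.53) and Cct3 (3.52) lowest. Per kilobase of the whole gene, introns included, Tcp1 came first at 3.71 CPM and Cct6a last at 0.414 CPM over an annotated gene of 59.4 kb; which scale fits depends on whether intronic reads were counted, which is not given in the sources used here. The level of each gene was higher in inhibitory neurons and oligodendrocytes than in excitatory neurons, an order that division by a length cannot change. The share of all CCT UMIs that came from a given subunit varied by a few percentage points between classes: Tcp1 gave 14.1% in precursors and 17.6% in astrocytes, its lowest and highest class, and Cct5 gave 9.57% in microglia and 11.1% in astrocytes. Some shares also differed between the replicate numbers. Cct2 gave 11.3% of CCT UMIs in replicate 1 and 9.13% in replicate 2 (means over 6 classes and both genotypes), and Cct5 11.0% and 9.66%, while Cct3 gave 10.5% and 12.9% and Cct4 11.3% and 13.4%. Cct2 CPM was lower in replicate 2 than in replicate 1 in 11 of 12 combinations of class and genotype, and Cct3 CPM in 3 of 12.

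The subunits followed each other across classes and libraries. Over the 24 points of 6 classes and 4 libraries, which share libraries and differ in depth, Pearson's r on log2(CPM + 1) had a median of 0.771 over the 28 pairs of subunits. The closest pair was Cct5 with Cct6a (0.873), and the least close was Cct2 with Cct4 (0.571). Cct5, a subunit whose human counterpart is mutated in a hereditary sensory neuropathy, tracked the mean of the other 7 most closely (r = 0.931). Cct4, whose rat counterpart is mutated in another sensory neuropathy, tracked it least closely (r = 0.751). These are descriptions of members that were chosen for their agreement. The agreement was also not particular to the complex. Over the same points Rpl36al (0.983) and Bex2 (0.981) correlated more closely with the mean of all subunits than any subunit did. The subunits themselves lay between 0.805 (Cct4) and 0.949 (Cct5) with that mean.

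**Figure D2:**
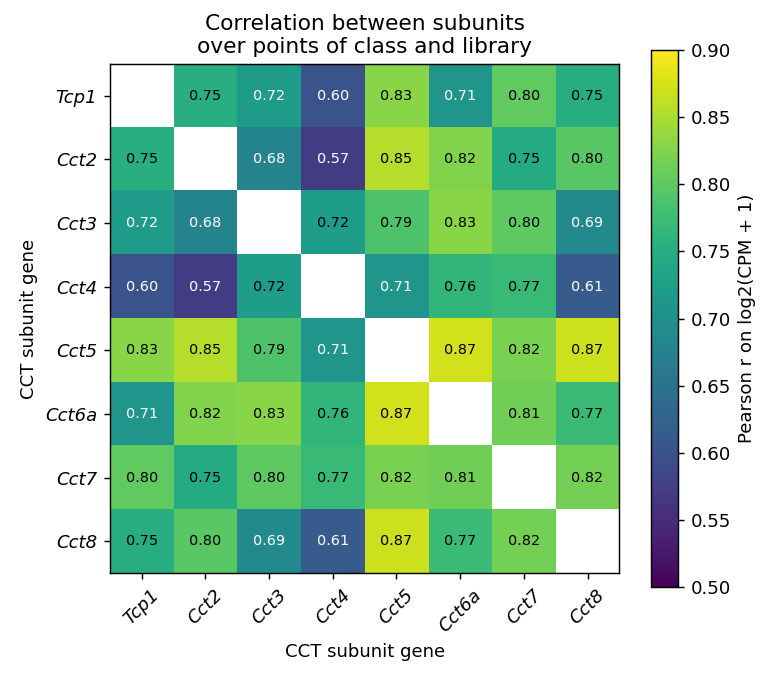
Pearson's r between each pair of the 8 CCT subunit genes (rows and columns) on log2(CPM + 1), over 24 points of nucleus class and library; the diagonal is blank. All 28 pairs lie between 0.571 and 0.873, and the row of Cct4 is the darkest, with its lowest value against Cct2.

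The summed level of the complex was lower in the DISC1-N library than in the WT library of the same replicate number in each of the 6 classes. In excitatory neurons it stood at 224.5 and 156.4 CPM in DISC1-N replicates 1 and 2, against 234.6 and 178.5 CPM in WT replicates 1 and 2. In inhibitory neurons it stood at 252.0 and 204.2 CPM in DISC1-N, against 287.5 and 247.4 CPM in WT. In excitatory neurons the gap between replicate numbers was wider than the gap between genotypes. In inhibitory neurons the gaps were of similar size. From replicate 1 to replicate 2 the log2 step there was -0.30 in DISC1-N and -0.22 in WT. Between genotypes it was -0.19 in replicate 1 and -0.28 in replicate 2. In both neuron classes the groups overlapped, with DISC1-N replicate 1 above WT replicate 2.

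Among glia the separation was clearer. Astrocytes had 317.3 and 256.0 CPM in DISC1-N libraries, against 377.6 and 343.4 CPM in WT libraries. Oligodendrocytes had 318.0 and 304.3 CPM in DISC1-N, against 400.9 and 387.4 CPM in WT. Oligodendrocyte precursors had 263.2 and 299.4 CPM in DISC1-N, against 416.8 and 348.8 CPM in WT. In these 3 classes both DISC1-N libraries lay below both WT libraries. Microglia had 307.2 and 388.1 CPM in DISC1-N, against 325.7 and 515.4 CPM in WT, and here the groups overlapped. From replicate 1 to replicate 2 the microglial log2 step was 0.34 in DISC1-N and 0.66 in WT. Between genotypes it was -0.08 in replicate 1 and -0.41 in replicate 2. The log2 difference, DISC1-N minus WT averaged over the replicate numbers, was -0.13 in excitatory neurons, -0.23 in inhibitory neurons, -0.34 in astrocytes, -0.34 in oligodendrocytes, -0.44 in precursors and -0.25 in microglia. Without DISC1-N replicate 2 the excitatory difference was 0.13, and without WT replicate 1 it was 0.07; without WT replicate 2 the microglial difference was 0.08. The classes share their 4 libraries, so they are not independent repeats of the difference. Whole libraries, with no gate on class, had 246.8 and 193.6 CPM in DISC1-N, against 276.5 and 232.6 CPM in WT. Nuclei with no clear class had 231.5 and 199.7 CPM in DISC1-N, against 245.6 and 225.1 CPM in WT.

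Other measures differed in the same contrast. Mitochondrially encoded RNA, a sign of cytoplasm carried along with nuclei, made up 661.4 and 219.9 CPM of excitatory nuclei in DISC1-N, against 1224 and 410.5 CPM in WT. Ribosomal protein genes summed to 4774 and 3007 CPM in excitatory nuclei of DISC1-N, against 4753 and 3415 CPM in WT. In oligodendrocytes the ribosomal protein genes had 8148 and 7719 CPM in DISC1-N, against 9438 and 8695 CPM in WT, while mitochondrial RNA had 1907 and 1151 CPM in DISC1-N, against 3052 and 1095 CPM in WT. Own markers of oligodendrocytes summed to 3739 and 11290 CPM in DISC1-N, against 5063 and 11550 CPM in WT. Their part in the lower CCT level was not tested.

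In excitatory neurons the subunits did not move as a block. Cct8, the theta subunit, had 30.6 and 19.9 CPM in DISC1-N libraries, against 37.3 and 25.7 CPM in WT libraries. Cct2, the beta subunit, which in human cells also acts alone as a receptor for the autophagy of protein aggregates, had 20.5 and 12.7 CPM in DISC1-N, against 25.9 and 17.5 CPM in WT. Both were lower in DISC1-N within each replicate number, although replicate 1 of DISC1-N exceeded replicate 2 of WT. Tcp1, the alpha subunit and the first of the family described, had 43.1 and 26.4 CPM in DISC1-N, against 38.0 and 31.5 CPM in WT. Cct3, the gamma subunit, had 25.2 and 20.4 CPM in DISC1-N, against 25.3 and 18.9 CPM in WT. For these the direction differed between replicate numbers. Cct4, the delta subunit, had 24.01 and 23.97 CPM in DISC1-N, against 27.1 and 25.2 CPM in WT. It was the 1 subunit of this class whose groups did not overlap. DISC1-N lay below WT in this way for 7.71% of genes with a mean of at least 20 CPM. Cct5 (epsilon) had 25.4 and 14.1 CPM in DISC1-N, against 25.3 and 16.3 CPM in WT. Cct6a (zeta) had 29.4 and 19.8 CPM in DISC1-N, against 28.2 and 21.0 CPM in WT. For both of these the DISC1-N library was slightly the higher in replicate 1 and the lower in replicate 2. Cct7 (eta), with 26.4 and 19.2 CPM in DISC1-N and 27.6 and 22.4 CPM in WT, was lower in both.

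In the edgeR quasi-likelihood fit that takes replicate number as a block, the log2 estimates in excitatory neurons (DISC1-N minus WT, ± SE) were -0.40 ± 0.12 for Cct2 and -0.33 ± 0.10 for Cct8, and lay between -0.14 ± 0.11 (Cct7) and 0.05 ± 0.11 (Cct3) for the other 6. Without the block they were -0.39 ± 0.25 for Cct2 and -0.32 ± 0.23 for Cct8. The common coefficient of variation between libraries was 0.186 without the block and 0.0569 with it. With the block, 4 libraries leave little to measure spread within a gene, so its SE leans on spread pooled over genes. All 8 subunits passed the filter on low counts in each of the 6 classes. In excitatory neurons 0 of 8 were called at an adjusted p under 0.05, without a block (0.0% of 16822 genes called) or with it (1.22% called, 0.606% lower and 0.612% higher). Their median estimate was -0.10 without the block, against -0.01 over all genes tested. Leaving out DISC1-N replicate 2 turned that median to 0.08, and leaving out WT replicate 1 to 0.01.

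**Figure D3:**
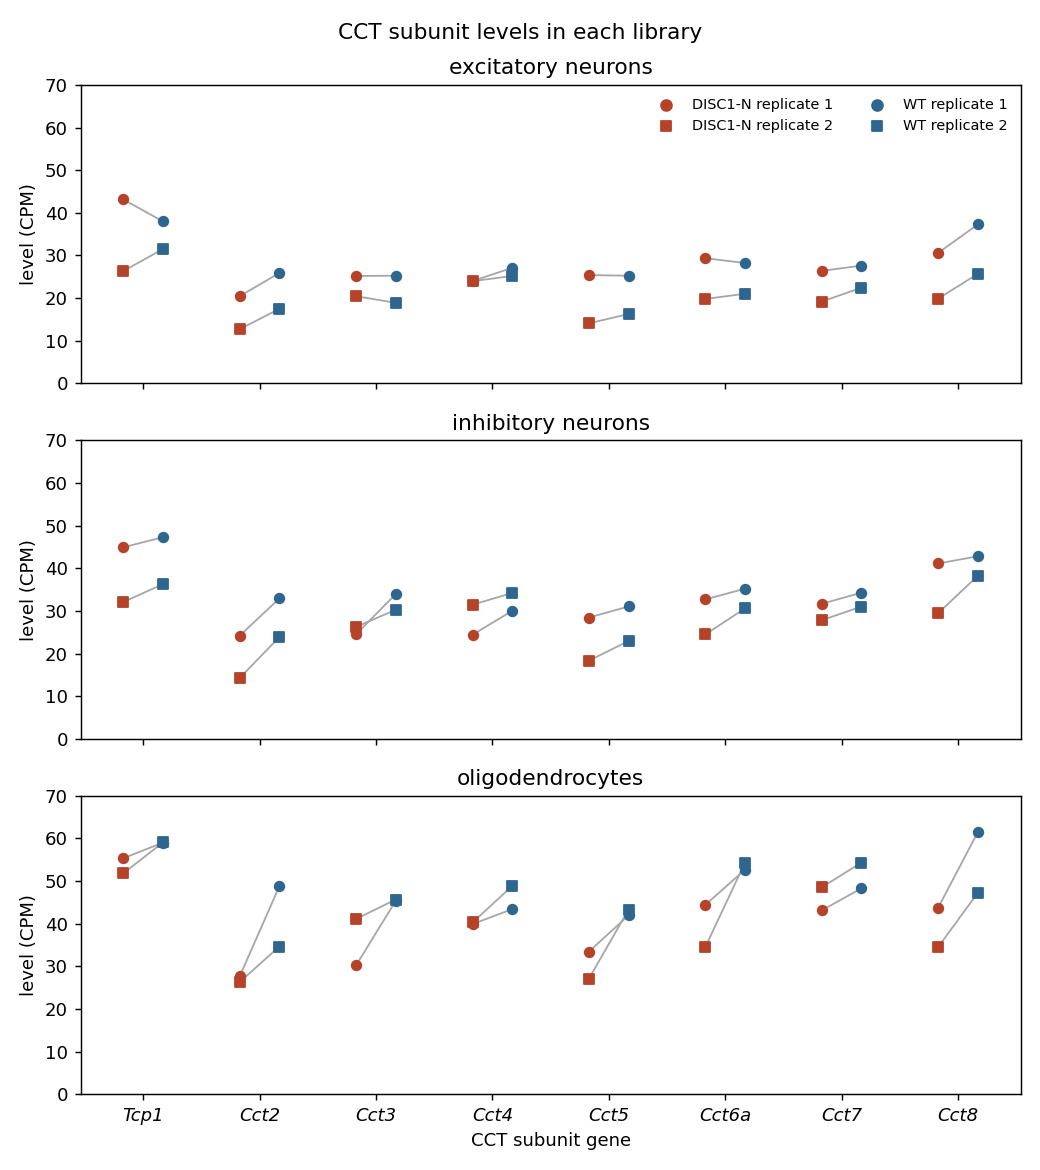
Level of each CCT subunit gene (CPM, y axis) in excitatory neurons, inhibitory neurons and oligodendrocytes (panels, top to bottom), 1 point per library, DISC1-N left of WT, with a line joining libraries of the same replicate number. In oligodendrocytes the points of DISC1-N lie below those of WT for 7 of 8 subunits (10.1% of genes with a mean of at least 20 CPM). In excitatory neurons they do so for Cct4 alone (7.71% of such genes), and the 2 lines of Tcp1 slope in opposite directions.

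In inhibitory neurons all 8 subunits were lower in DISC1-N within both replicate numbers, as were 31.1% of 7269 genes with a mean of at least 20 CPM. Cct2 was furthest apart, with 24.2 and 14.3 CPM in DISC1-N, against 32.9 and 23.9 CPM in WT. Cct3 had 24.5 and 26.3 CPM in DISC1-N, against 34.0 and 30.3 CPM in WT. It was the 1 subunit whose groups did not overlap here (DISC1-N below WT in 9.13% of those genes). Tcp1 had 44.9 and 32.1 CPM in DISC1-N, against 47.3 and 36.3 CPM in WT. For Tcp1 and Cct5, both log2 steps between replicate numbers exceeded both steps between genotypes in size. For Cct3 alone both steps between genotypes were the larger. For the other subunits the sizes overlapped. Cct2 stepped by -0.76 (DISC1-N) and -0.46 (WT) from replicate 1 to replicate 2. Between genotypes it stepped by -0.44 (replicate 1) and -0.74 (replicate 2). In the fit that takes replicate number as a block, the estimate for Cct2 was -0.57 ± 0.13, past the threshold on the values that also chose the gene, and the other 7 subunits were not called (0.893% of 15786 genes were called, 0.570% lower and 0.323% higher); without the block 0 of 8 were called (0.0% called). The estimate for Cct2 without the block was -0.56 ± 0.28. The median of the 8 was -0.19 without the block, against 0.00 over all genes, and stayed below 0 whichever library was left out.

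Oligodendrocytes, the myelinating glia, were the class with the most subunits separate between genotypes. All 8 were lower in DISC1-N within both replicate numbers, as were 30.1% of 7541 genes with a mean of at least 20 CPM. For 7 both DISC1-N libraries lay below both WT libraries, as for 10.1% of those genes. This contrast also chose the subunits, so these counts describe them only. Cct2 had 27.7 and 26.3 CPM in DISC1-N, against 48.8 and 34.7 CPM in WT. Cct8 had 43.8 and 34.5 CPM in DISC1-N, against 61.5 and 47.2 CPM in WT. Cct5 had 33.5 and 27.1 CPM in DISC1-N, against 41.9 and 43.3 CPM in WT. These differences rest on small counts: 32 to 126 UMIs per library for Cct2 and Cct8. Cct6a had 44.4 and 34.5 CPM in DISC1-N, against 52.7 and 54.3 CPM in WT, and Tcp1 had 55.4 and 51.8 CPM in DISC1-N, against 59.0 and 59.1 CPM in WT. Cct7, with 43.1 and 48.5 CPM in DISC1-N and 48.3 and 54.3 CPM in WT, was the subunit whose groups overlapped. None of the 8 was called, without a block (0.0% of 11403 genes called) or with it (0.00877% called), and their median estimate was -0.35 without the block, against 0.02 over all genes.

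The remaining glia were less uniform. In oligodendrocyte precursors, the dividing progenitors of the lineage, Cct7 had 28.3 and 27.2 CPM in DISC1-N, against 54.9 and 51.6 CPM in WT. That is a log2 difference of -0.96 in replicate 1 and -0.92 in replicate 2, on 34 to 75 UMIs per library. Of the other 7 subunits there, 6 differed more in replicate 1 than in replicate 2; Cct6a had 36.4 and 40.0 CPM in DISC1-N, against 68.1 and 39.3 CPM in WT. In astrocytes Cct5 had 33.8 and 21.8 CPM in DISC1-N, against 51.4 and 39.0 CPM in WT, and Cct6a had 25.6 and 31.9 CPM in DISC1-N, against 43.5 and 44.6 CPM in WT. Neither overlapped. Cct8 in astrocytes went opposite ways in the replicate numbers, with 58.6 and 25.5 CPM in DISC1-N and 44.8 and 48.9 CPM in WT. In microglia Cct3 had 26.9 and 37.8 CPM in DISC1-N, against 31.1 and 76.1 CPM in WT, and Cct2 had 44.9 and 39.3 CPM in DISC1-N, against 31.8 and 60.5 CPM in WT. Microglial values rest on 23 to 84 UMIs per subunit and library, the fewest of the 6 classes. No subunit was called in these 3 classes, without a block (0.0% of genes called in each) or with it. With the block, 0.134% of all genes tested were called in astrocytes (0.126% lower and 0.00787% higher). In precursors 0.141% of all genes tested were called (0.0264% lower and 0.114% higher), and in microglia 0.0%.

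Over the 48 combinations of subunit and class, 35 were lower in DISC1-N within both replicate numbers, 0 were higher in both and 13 were mixed. The count was 4 of 8 subunits in excitatory neurons (31.5% of 6820 genes with a mean of at least 20 CPM behaved so), 8 of 8 in inhibitory neurons (31.1% of 7269), 5 of 8 in astrocytes (29.3% of 7629), 8 of 8 in oligodendrocytes (30.1% of 7541), 5 of 8 in precursors (30.9% of 7683) and 5 of 8 in microglia (26.6% of 8188). Both DISC1-N libraries lay below both WT libraries for 1 of 8 in excitatory neurons (7.71% of genes), 1 of 8 in inhibitory neurons (9.13%), 4 of 8 in astrocytes (6.82%), 7 of 8 in oligodendrocytes (10.1%), 3 of 8 in precursors (13.4%) and 2 of 8 in microglia (6.40%). By subunit, Tcp1, Cct2, Cct3, Cct5 and Cct7 were lower within both replicate numbers in 5 of 6 classes each, Cct8 in 4, and Cct4 and Cct6a in 3. Since this contrast chose the genes, the counts describe them and are no evidence of a difference. Whether the classes differ in the size of the gap was not tested.

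**Figure D4:**
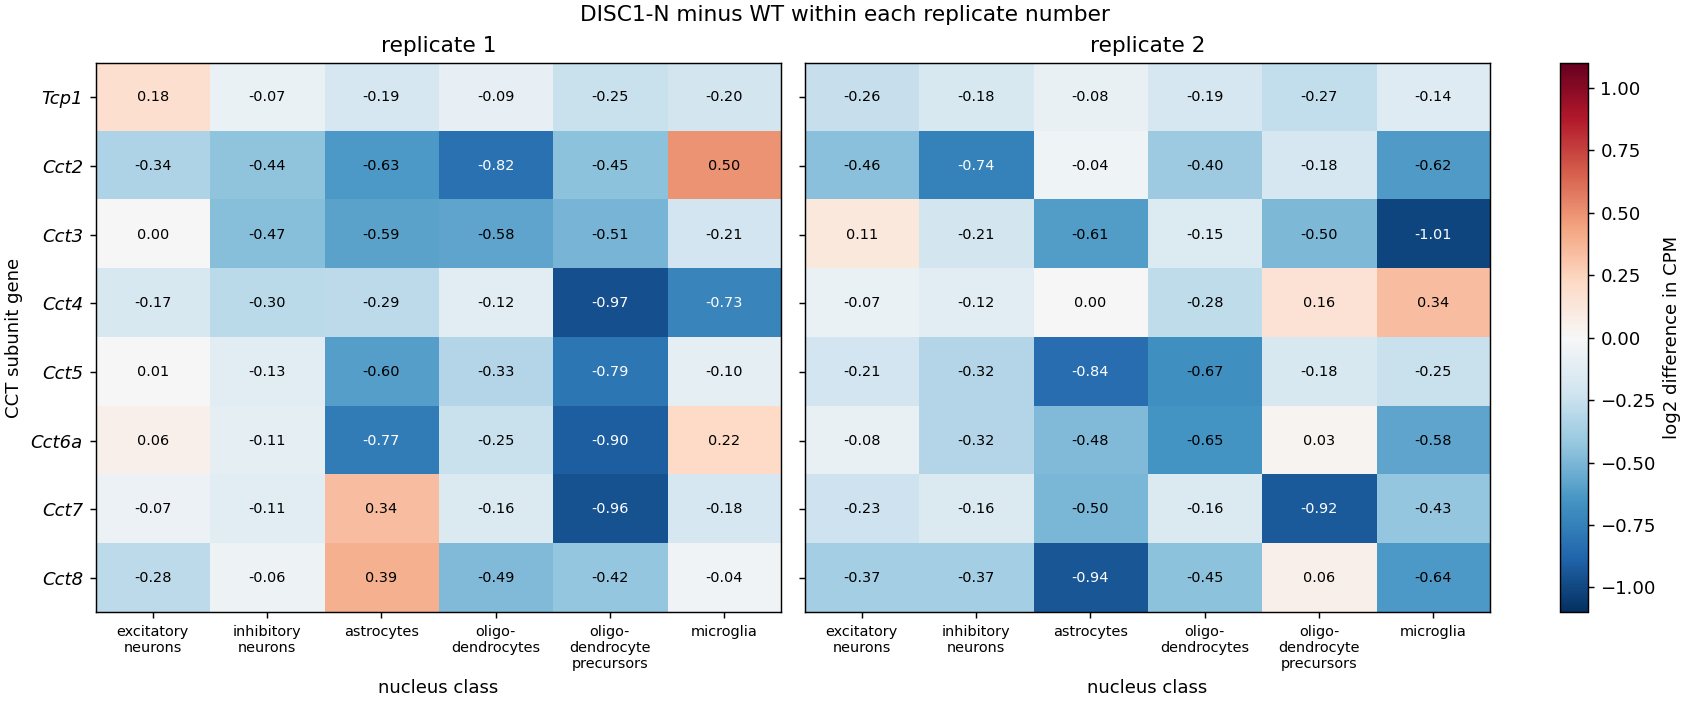
Log2 difference in CPM, DISC1-N minus WT, for each CCT subunit gene (rows) in each nucleus class (columns), within replicate 1 (left) and replicate 2 (right); blue is lower in DISC1-N. The columns of inhibitory neurons and oligodendrocytes are blue throughout in both panels, while Cct2 in microglia is 0.50 in replicate 1 and -0.62 in replicate 2, and Cct8 in astrocytes 0.39 and -0.94.

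Seen per nucleus, most nuclei showed only a part of the complex. In excitatory neurons at least 1 CCT UMI was found in 87.3% and 74.1% of DISC1-N nuclei (replicates 1 and 2), against 88.5% and 74.8% of WT nuclei, and a nucleus showed on average 2.18 and 1.33 of the 8 subunits in DISC1-N, against 2.18 and 1.38 in WT. All 8 subunits together were seen in 0.333% of excitatory nuclei of DISC1-N replicate 1 and 0.149% of those of WT replicate 1; in replicate 2 of both genotypes no excitatory nucleus showed more than 6. In oligodendrocytes the share with a CCT UMI was 66.7% and 37.7% in DISC1-N, against 64.5% and 48.7% in WT. These shares follow depth, so each nucleus was thinned to 1000 UMIs, leaving out shallower nuclei. Thinned, the share in oligodendrocytes was 41.1% and 26.9% in DISC1-N (exact 95% intervals 35.7% to 46.6% and 23.4% to 30.7%), against 44.8% and 35.2% in WT (40.5% to 49.1% and 31.3% to 39.2%). Among excitatory neurons it was 20.2% and 17.3% in DISC1-N (18.0% to 22.6% and 15.5% to 19.2%), against 25.5% and 16.6% in WT (23.2% to 27.9% and 14.8% to 18.5%). The intervals cover counting error only. Thinning left out 35 and 127 oligodendrocytes of DISC1-N and 73 and 100 of WT, but only 6 and 5 excitatory neurons of DISC1-N and 20 and 3 of WT. At this thinned depth the order of the classes was that of the summed CPM, with excitatory neurons lowest (mean 19.9%) and oligodendrocytes at 37.0%. No cell class of brain is known to lack CCT, so no class gives the level of free RNA alone.

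The partners of CCT were examined as lists chosen with earlier results of these data known. Without a block, edgeR called none of their genes in any class. With replicate number as a block, 0 of 10 tested prefoldin and co-chaperone genes were called in excitatory neurons, where 1.22% of all genes were. Pfdn1, a prefoldin subunit, had 90.4 and 71.2 CPM in DISC1-N, against 85.8 and 70.1 CPM in WT (log2 0.05 ± 0.08 with the block). Pfdn5 had 42.7 and 23.2 CPM in DISC1-N, against 42.9 and 28.2 CPM in WT, and Pfdn2 had 36.0 and 23.0 CPM in DISC1-N, against 35.2 and 24.2 CPM in WT. For Pfdn1 and Pfdn2 the libraries of a replicate number nearly coincided. Txndc9, a phosducin-like protein that binds CCT, had 30.7 and 19.4 CPM in DISC1-N, against 30.8 and 23.3 CPM in WT. The list's median was 0.03, against -0.01 over all genes.

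The tubulin cofactors, which assemble folded tubulins into dimers, also had 0 of 6 called in excitatory neurons (median -0.06). Tbce had 121.1 and 104.5 CPM in DISC1-N, against 121.0 and 115.3 CPM in WT, with Tbcd at 73.4 and 69.6 CPM in DISC1-N and 74.6 and 75.6 CPM in WT. Tbca had 34.4 and 31.0 CPM in DISC1-N, against 33.9 and 33.6 CPM in WT, and Tbcb 17.2 and 10.8 CPM in DISC1-N, against 18.5 and 13.5 CPM in WT. The CCT-like genes were scarce, and 0 of 4 tested were called (median 0.13): Bbs12, part of a chaperonin-like complex that builds the BBSome, had 6.40 and 7.86 CPM in DISC1-N, against 7.32 and 10.1 CPM in WT, and Mkks 3.17 and 2.45 CPM in DISC1-N, against 3.05 and 1.98 CPM in WT. Bbs10, of the same complex, had 2.44 and 2.14 CPM in DISC1-N, against 2.35 and 1.91 CPM in WT. Cct6b, the testis form of the zeta subunit, had 1.12 and 1.13 CPM in DISC1-N, against 1.15 and 0.778 CPM in WT, far below Cct6a in UMIs, with lengths not taken into account.

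Without the block no client gene was called, and the spread between libraries of a group may be technical. With the block, SE and p lean on spread pooled over genes, since 4 libraries leave little to measure spread within a gene. Of the client genes, 2 of 17 tested were called lower in DISC1-N excitatory neurons with the block and 0 higher. Among all genes, 0.606% were called lower and 0.612% higher. The median of the client genes was -0.22, against -0.01 over all genes. The 2 were Tubb5 (-0.36 ± 0.09, edgeR adjusted p = 0.0173) and Tuba1a (-0.28 ± 0.08, edgeR adjusted p = 0.0495), a beta and an alpha tubulin. In inhibitory neurons 3 of 18 were called lower with the block, where 0.570% of all genes were called lower. Tubb2a, a beta tubulin of neurons, had 119.9 and 93.9 CPM in DISC1-N, against 139.8 and 144.7 CPM in WT. Its estimate was -0.41 ± 0.08 with the block (edgeR adjusted p = 0.000114) and -0.41 ± 0.17 without it. Actb, beta actin, had 155.9 and 206.2 CPM in DISC1-N, against 187.9 and 265.5 CPM in WT (-0.31 ± 0.07, edgeR adjusted p = 0.00675). Without the block the estimate for Actb was -0.32 ± 0.26. Tubb2a was separate between genotypes in inhibitory neurons (DISC1-N below WT in 9.13% of genes with a mean of at least 20 CPM). Actb overlapped there, with replicate 2 the higher in both genotypes. The third was Tubb5 (-0.35 ± 0.10, edgeR adjusted p = 0.0421). In excitatory neurons Tubb2a had 108.3 and 53.8 CPM in DISC1-N, against 106.7 and 79.7 CPM in WT, and Actb 135.1 and 139.3 CPM in DISC1-N, against 140.7 and 184.8 CPM in WT; neither was called. Gnb1, a G protein beta subunit, had 142.1 and 152.3 CPM in DISC1-N, against 150.3 and 156.9 CPM in WT. Actg1, gamma actin, had 88.9 and 55.6 CPM in DISC1-N, against 89.5 and 76.0 CPM in WT, also without a call.

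The cytosolic Hsp70 and Hsp90 chaperones, which act beside CCT on new and unfolded proteins, were the last large list. Without the block none of the list was called, and the spread between libraries of a group may be technical. In excitatory neurons, with the block, 3 of 16 tested genes were called lower and 0 higher. Among all genes, 0.606% were called lower and 0.612% higher. The 3 were Hsp90ab1, Hspa8 and Hsp90aa1. Hsp90ab1, the constitutive Hsp90, had 120.5 and 61.6 CPM in DISC1-N, against 151.9 and 88.8 CPM in WT (-0.43 ± 0.08, edgeR adjusted p = 2.1e-05). Hspa8, the constitutive Hsp70, had 96.2 and 48.9 CPM in DISC1-N, against 112.5 and 74.1 CPM in WT (-0.40 ± 0.08, edgeR adjusted p = 0.000221). Hsp90aa1, the inducible Hsp90, had 130.7 and 55.3 CPM in DISC1-N, against 171.3 and 72.3 CPM in WT (-0.39 ± 0.08, edgeR adjusted p = 0.000199). Each was lower in DISC1-N within both replicate numbers but overlapped between genotypes, the replicate 2 libraries being much the lower. Without the block their estimates were -0.41 ± 0.33 (Hsp90ab1), -0.37 ± 0.31 (Hspa8) and -0.40 ± 0.46 (Hsp90aa1). The smaller SE and the p with the block lean on spread pooled over genes. Hspa4, an Hsp70 relative that acts as a nucleotide exchange factor, had 96.9 and 68.5 CPM in DISC1-N, against 92.1 and 69.1 CPM in WT, and was not called. The median of the 16 was -0.06, near that of all genes.

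The same 3 genes were called lower in inhibitory neurons with the block, 3 of 15 tested, where 0.570% of all genes were called lower. Hsp90ab1 had 148.1 and 104.6 CPM in DISC1-N, against 203.4 and 147.5 CPM in WT (-0.47 ± 0.08, edgeR adjusted p = 1.32e-06), with Hspa8 at -0.42 ± 0.08 and Hsp90aa1 at -0.40 ± 0.08. Without the block the estimates were -0.46 ± 0.22 (Hsp90ab1), -0.40 ± 0.22 (Hspa8) and -0.41 ± 0.40 (Hsp90aa1). In oligodendrocyte precursors Hspa8 alone of the list was called lower with the block (-0.64 ± 0.16, edgeR adjusted p = 0.0406), where 0.0264% of all genes were called lower. Its estimate there without the block was -0.63 ± 0.27. In oligodendrocytes the 3 genes were separate between genotypes but not called. DISC1-N lay below WT in this way for 10.1% of 7541 genes with a mean of at least 20 CPM. Hsp90ab1 had 243.3 and 226.2 CPM in DISC1-N, against 361.4 and 366.1 CPM in WT (-0.59 ± 0.17, edgeR adjusted p = 0.715). Hspa8 had 226.0 and 217.1 CPM in DISC1-N, against 336.5 and 311.0 CPM in WT. Of the mitochondrial chaperonin, which is built of Hspd1 and its lid Hspe1, neither gene was called in excitatory neurons; Hspd1 had 28.2 and 19.9 CPM in DISC1-N, against 31.4 and 26.2 CPM in WT, and Hspe1 27.4 and 12.6 CPM in DISC1-N, against 28.8 and 20.1 CPM in WT. Whether these genes differed more between genotypes than the CCT subunits was not tested.

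**Figure D5:**
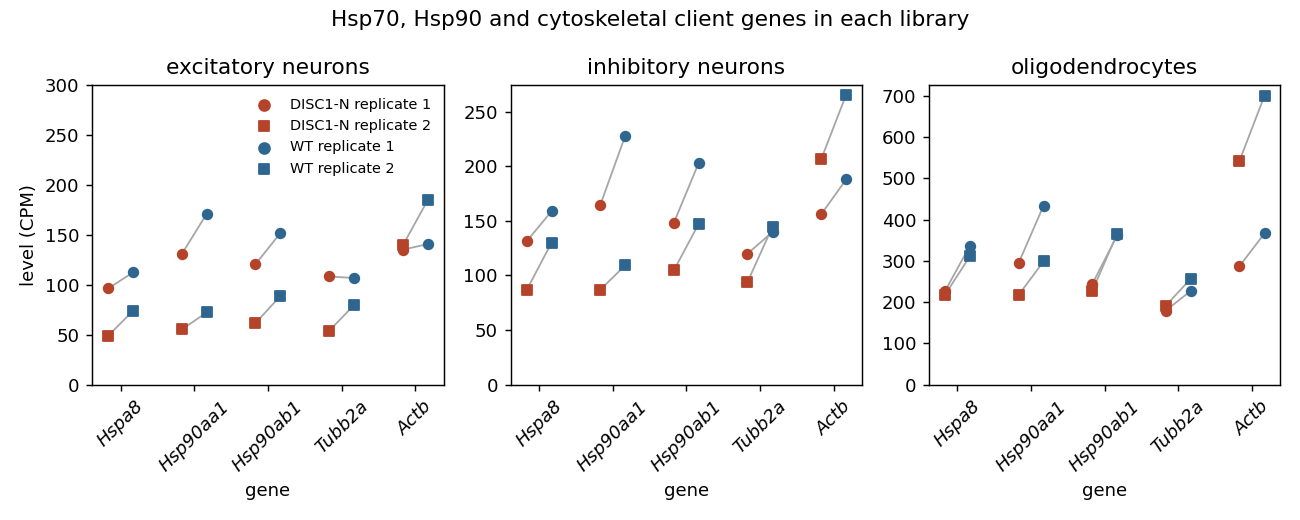
Level (CPM, y axis; the scale differs between panels) of 3 Hsp70 and Hsp90 genes and 2 cytoskeletal client genes (x axis) in excitatory neurons, inhibitory neurons and oligodendrocytes, 1 point per library, DISC1-N left of WT, with a line joining libraries of the same replicate number. Hsp90ab1 is lower in DISC1-N on every line, with its DISC1-N points at 243.3 and 226.2 CPM and its WT points at 361.4 and 366.1 CPM in oligodendrocytes.

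Genes whose pattern was most like that of the complex were sought by Pearson's r with the mean of the 8 subunits on log2(CPM + 1). Over all 36 points of 9 classes and 4 libraries, the nearest of 8252 genes included Rab21 (0.749), Slc38a9 (0.716), Otud6b (0.710), Supt4a (0.709), Eri2 (0.707), Stip1 (0.705), C1qbp (0.686), Vdac2 (0.683) and Nme2 (0.682), with a median of 0.128 over those genes. Stip1 is the co-chaperone that links Hsp70 to Hsp90. In that set the subunits themselves reached only 0.036 (Cct3) to 0.763 (Cct2), since 3 scarce classes with 8 to 61 CCT UMIs per library enter it. Over the 24 points of the 6 larger classes, a choice made after seeing the data, the nearest of 7946 genes were Rpl36al (0.983), Bex2 (0.981), Rpl23 (0.969), Pcp4 (0.967), Hspa8 (0.964), Nme1 (0.963), Grcc10 (0.962), Elob (0.961), Pebp1 (0.959) and Hsp90ab1 (0.958), against a median of 0.205. The 2 lists had no gene in common. In the second, the 8 subunits lay between 0.805 (Cct4) and 0.949 (Cct5). Hspa8, for example, had 96.2 and 48.9 CPM in DISC1-N excitatory neurons, against 112.5 and 74.1 CPM in WT. The points share libraries and differ in depth and in the amount of ribosomal protein RNA, so these values carry no p.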

How the data were processed

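UMI counts per gene and barcode were deposited by the authors as 4 unnormalized count matrices of nuclear RNA (Chromium 3' libraries, per the labels' protocols), made with Cell Ranger on mm10 per the submitters' processing notes. Those notes name version 7.0.0; the file headers give 7.0.0 for replicate 1 and 6.0.2 for replicate 2 of both genotypes. Intron counting and barcode calling: not given in the sources used here. Members and lists were chosen with earlier results of these data known.

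Filters kept barcodes with 500 or more detected genes and mitochondrial UMIs of 5% or less, and the top Scrublet scores (scanpy 1.11.5; 0.8% per 1000 nuclei, 1518 nuclei) were removed as doublets. A nucleus got the class with the highest detected share of its marker list, given at least 3 markers and a lead of 10 percentage points, limits set after seeing the data; 3579 classed nuclei lay within 5 points of that lead. Sums of counts over the nuclei of a class in a library were tested in edgeR 4.0.16 (quasi-likelihood, TMM, filterByExpr, Benjamini-Hochberg adjustment over all genes tested) without a block and, since the replicate number marks a software version in the headers, with it as a block; replicate deviations of both genotypes correlated at 0.843 over 6820 genes. The scripts were tested on simulated data. DESeq2 1.42.0 was an alternative. CPM here scales UMIs to the total of the class in its library. Named genes were the 8 members, the 4 members of each list with the highest mean CPM in excitatory neurons, and the 10 genes most correlated with the members; Tubb5 and Tuba1a were named after their values were seen. One gene that this rule names is not reported here. Per-library totals of 37840301 to 48439711 UMIs leave a subunit 23 to 654 UMIs per class and library. GENCODE matched 32235 of 32285 gene IDs.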

Additional observations from a re-analysis of the deposited data

How the results depend on the processing

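The summed CCT level was lower in DISC1-N within both replicate numbers in 54 of 54 combinations of 6 classes and 9 ways of choosing or scaling nuclei. These ways reuse the same 4 libraries and the contrast that chose the genes, so the count is no evidence of a difference. None of the 9 leaves out a library. The log2 difference of the summed level in oligodendrocytes was -0.34. It moved to -0.29 with nuclei of 1000 to 3000 UMIs (chosen after seeing the data) and -0.29 with a stricter marker gate. Thinned to 1000 UMIs it was -0.40, and with TMM-scaled CPM -0.30. In precursors it moved from -0.44 to -0.25 with nuclei of 1000 to 3000 UMIs. Leaving out 1 library gave differences of -0.39 to 0.13 in excitatory neurons, -0.39 to -0.08 in inhibitory neurons, -0.49 to -0.18 in astrocytes, -0.37 to -0.31 in oligodendrocytes, -0.57 to -0.31 in precursors and -0.58 to 0.08 in microglia.

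Averaging per-nucleus CPM gave summed levels of 290.6 CPM in inhibitory neurons, 388.4 in astrocytes, 499.98 in oligodendrocytes, 400.9 in precursors and 558.6 in microglia; the stricter gate gave 425.2 CPM in oligodendrocytes. With nuclei of 1000 to 3000 UMIs the levels were 454.7, 366.3, 392.5, 505.4, 426.3 and 568.7 CPM (excitatory and inhibitory neurons, astrocytes, oligodendrocytes, precursors, microglia). Thinning lowered the mean share of nuclei with a CCT UMI to 19.9% in excitatory neurons, 24.4% in inhibitory neurons, 29.8% in astrocytes, 37.0% in oligodendrocytes and 32.6% in precursors.

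Without a block edgeR called 0 genes in each of 7 classes tested (82 at an unadjusted p under 0.05 in excitatory neurons; DESeq2 also 0). The replicate block gave 205 calls in excitatory neurons, 141 in inhibitory neurons, 17 in astrocytes, 1 in oligodendrocytes, 16 in precursors and 0 in microglia and endothelial cells; of the lists in excitatory neurons it called 2 client genes and 3 Hsp70 and Hsp90 genes. It called Cct2 in inhibitory neurons and no other member, on the contrast that chose these genes. With no filter on low counts there were 2 calls in precursors, 1 in microglia and 3 in endothelial cells. Leaving out 1 library gave 0 to 12 calls in excitatory neurons, 0 to 10 in inhibitory neurons, 0 to 16 in precursors, 0 to 24 in endothelial cells and 0 in astrocytes, oligodendrocytes and microglia. Causes of these shifts were not tested. Leaving out a library turned the sign of the estimate of Tcp1, Cct3, Cct5, Cct6a and Cct7 in excitatory neurons, but not of Cct2, Cct4 or Cct8. The sign of the summed difference turned without DISC1-N replicate 2 or WT replicate 1 in excitatory neurons, and without WT replicate 2 in microglia.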

Other observations

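Among nuclei of 1000 to 3000 UMIs, the summed CCT level was higher in replicate 1 than in replicate 2 in 12 of 12 combinations of class and genotype. Over all nuclei it was lower in replicate 2 in 9 of 12, microglia and DISC1-N precursors being the exceptions. Microglia of that depth had 635.4 and 417.7 CPM in DISC1-N replicates 1 and 2, against 685.4 and 536.4 CPM in WT, whereas over all depths they had 307.2 and 388.1 CPM in DISC1-N, against 325.7 and 515.4 CPM in WT. The DISC1-N library was the lower one of its replicate number in both settings.

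In nuclei without a clear class, Tcp1, Cct3, Cct4, Cct5 and Cct7 were lower in DISC1-N within both replicate numbers. Cct2 and Cct8 were mixed, and Cct6a was slightly higher in DISC1-N within both. Cct2 had 22.65 and 19.87 CPM in DISC1-N, against 23.8 and 19.2 CPM in WT. Cct8 had 36.22 and 28.95 CPM in DISC1-N, against 32.57 and 36.5 CPM in WT. The share of all genes lower in these nuclei was not computed. Cct7 had 27.7 and 26.3 CPM there in DISC1-N, against 29.8 and 35.1 CPM in WT. Cct6a had 31.0 and 23.3 CPM in DISC1-N, against 30.9 and 22.3 CPM in WT.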
